A study of Mus musculus with 198 samples.

Results

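The genes examined here are 8 that the mouse liver expresses at very high levels, followed through tissues other than the liver. They are Alb, Apoa1, Ttr, Ahsg, Cps1, Fga, Fgb and Fgg, 8 of the 56332 genes counted. They were chosen by name, with the liver as the tissue of their high expression and with differences in gonadal fat already known, so levels between tissues are given as a description with no test, and the treatment values in gonadal fat support nothing on their own. Each of 22 C57BL/6 mice gave 9 tissues, with 1 library for each tissue. The antibody arm (aPAPPA) held 10 mice, 5 of each sex, that received an antibody against the metalloproteinase PAPP-A for 17 weeks, and the control arm held 12 mice, 6 of each sex, kept on control treatment for the same time. All mice were of this same strain, their age is not in the labels, and mice are named here by the numbers that the labels give them.

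Hepatocytes secrete most of the proteins of blood plasma. Alb encodes albumin, the main plasma protein and a carrier of fatty acids and hormones. Apoa1 encodes the core protein of high-density lipoprotein, Ttr encodes transthyretin, which carries thyroid hormone and retinol-binding protein, and Ahsg encodes fetuin-A, an inhibitor of mineral deposition. Fga, Fgb and Fgg encode the Aα, Bβ and γ chains of fibrinogen, which thrombin turns into the fibrin of a clot. Cps1 differs from the rest, since its product, carbamoyl phosphate synthetase 1, is not secreted but sits in the mitochondrial matrix, where it carries out the entry step of the urea cycle. Transcription of such genes in hepatocytes depends on liver-enriched factors such as HNF1, HNF4 and the C/EBP family, some of which kidney and gut epithelium also use. Whether counts outside the liver came from cells of the organ sampled or from liver RNA carried into the sample or the library was not tested.

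Sequence before annotated starts was compared across 6 of the 8 genes, with RefSeq entries on build GRCm38.p6. No window was searched for Cps1 or for Ttr, so the counts of matches below leave these genes out. The 250 bases before the RefSeq start were searched on both strands for GTTAAT, a core of the HNF1 site. They were searched too for TTGCNNAA, a form of the C/EBP site. Capitals mark matches to either. RefSeq starts can differ from those of the gene models behind the counts, which begin at 90460897 for Alb, 83026076 for Fga and 22891277 for Ahsg, so distances here are from the RefSeq start only. The stretch searched for Alb ends short of its gene model, and that for Fga runs past the start of its gene model. The stretch searched for Ahsg lies wholly inside its gene model. The windows below belong to Alb at chr5:90460620-90460869 (plus strand), Fga at chr3:83025903-83026152 (plus strand), Fgb at chr3:83049864-83050113 (minus strand), Fgg at chr3:83007474-83007723 (plus strand) and Ahsg at chr16:22891765-22892014 (plus strand), and they are shown because Alb is the yardstick of the results, the fibrinogen genes are neighbours that parted in kidney and in subscapular fat, and Ahsg parted from Alb in heart.
Alb: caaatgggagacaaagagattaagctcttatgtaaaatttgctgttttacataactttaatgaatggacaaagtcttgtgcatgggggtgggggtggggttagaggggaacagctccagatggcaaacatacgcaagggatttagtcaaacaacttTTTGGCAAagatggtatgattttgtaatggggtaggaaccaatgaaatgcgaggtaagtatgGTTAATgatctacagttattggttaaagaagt
Fga: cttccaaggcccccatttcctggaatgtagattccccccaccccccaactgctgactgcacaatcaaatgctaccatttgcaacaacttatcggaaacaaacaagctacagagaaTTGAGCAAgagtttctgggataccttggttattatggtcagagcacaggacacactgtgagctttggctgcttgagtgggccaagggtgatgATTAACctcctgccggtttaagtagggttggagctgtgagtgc
Fgb: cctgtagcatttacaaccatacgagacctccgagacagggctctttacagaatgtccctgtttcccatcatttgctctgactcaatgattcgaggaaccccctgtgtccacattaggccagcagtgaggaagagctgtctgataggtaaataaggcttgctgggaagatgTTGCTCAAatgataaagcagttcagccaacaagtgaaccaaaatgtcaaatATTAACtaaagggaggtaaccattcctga
Fgg: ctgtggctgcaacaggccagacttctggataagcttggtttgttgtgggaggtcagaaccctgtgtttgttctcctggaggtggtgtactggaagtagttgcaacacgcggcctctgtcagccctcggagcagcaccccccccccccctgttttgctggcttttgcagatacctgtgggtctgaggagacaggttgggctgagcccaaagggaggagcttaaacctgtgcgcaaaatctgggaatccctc
Ahsg: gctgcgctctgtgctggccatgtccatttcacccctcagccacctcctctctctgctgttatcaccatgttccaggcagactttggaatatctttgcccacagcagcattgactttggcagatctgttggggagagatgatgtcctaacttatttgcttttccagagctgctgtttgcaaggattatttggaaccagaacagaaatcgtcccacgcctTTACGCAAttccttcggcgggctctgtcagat
The HNF1 core was in 3 of the 6 promoters (Alb, Fga and Fgb) and in 6.43% of all 32851 promoters of this length, and the C/EBP form was in 4 of the 6 (Alb, Ahsg, Fga and Fgb) and in 9.56% of all. In Alb the matches began 32 and 94 bases before the RefSeq start, in Fga 43 and 135, in Fgb 29 and 80, and in Ahsg the C/EBP form began 32 bases before it. Fgg and Apoa1 held neither in these windows, and none of the 6 held CAAAGTCCA, a form of the HNF4 site that 0.384% of all promoters hold, or the TATA box letters TATAAA, which 12.4% hold. Absence is stated for these windows only, which do not all sit just before the start of the gene model.

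Most counts fell on 9 features, among them Lars2, Gm42418 and the mitochondrial ribosomal RNA genes mt-Rnr1 and mt-Rnr2, so levels are given as CPM, a gene's count scaled to a fixed total of the remaining counts. These remaining counts, called usable here, had a median of 1099966.5 over libraries, with a lowest value of 33377 and a highest of 4694597. Doubt attaches to 5 libraries, in which few genes were seen or markers of the stated tissue were scarce: heart of aPAPPA male mouse 56 and control female mouse 22, gonadal fat of aPAPPA male mouse 58, skin of aPAPPA female mouse 36 and lung of control male mouse 68. That lung library of mouse 68 held 9.933 CPM of 6 lung epithelium markers, against a median of 25520 CPM in control lungs, and 9495 CPM of adipocyte markers. It is among the lungs with the most Alb, so the lung results that it moves are given without it too.

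In liver the 8 genes together took a median of 8.19% of usable counts (5.51% to 13.7% over 22 libraries). Per kilobase of exon, median liver levels in CPM fell in the order Alb at 23463.1, Apoa1 at 3786.5, Ttr at 2394.1, Ahsg at 2153.8, Fga at 1342.5, Fgg at 1307.7, Fgb at 862.9 and Cps1 at 451.1. The liver ranges of neighbours in this order from Apoa1 to Cps1 overlap, with Ttr at 1467.7 to 3054.6 and Ahsg at 1639.1 to 3387.6, and Fga at 931.3 to 2055.9 and Fgg at 726.7 to 1922.3. Elsewhere each gene was expressed as a percent of its median over the 22 liver libraries, which puts genes of different abundance and length on the same scale.

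Alb was read in every library of 7 non-liver tissues, at levels that differed by tissue and, more widely, by library. Its median was 0.4661% of the liver level in lung (0.0384% to 4.49%), 0.172% in gonadal fat (0.0399% to 3.74%), 0.0489% in subscapular fat (0.00698% to 1.44%), 0.0471% in skin (0.011% to 1.17%), 0.046% in kidney (0.0285% to 0.0917%), 0.0381% in spleen (0.00313% to 0.223%) and 0.021% in heart (0.00652% to 0.113%), with n = 22 libraries each. Without the doubted library of mouse 68 the lung median was 0.3025% over 21 lungs. The ranges of neighbours in this order overlap throughout. The highest library stood 117.1-fold above the lowest in lung, 93.8-fold in gonadal fat, 205.8-fold in subscapular fat, 105.9-fold in skin, 71.4-fold in spleen and 17.3-fold in heart. In kidney that ratio was 3.21-fold. Alb reached 0.1% of the liver level in 15 of 22 lungs, 14 gonadal fats, 7 skins, 4 subscapular fats, 3 spleens, 1 heart and 0 kidneys.

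Bone marrow was the exception among the 8 non-liver tissues. Its 22 libraries, with 30007383 usable counts in all, held 1 count of Alb, 1 of Apoa1, 2 of Ttr and 1 of Fga. Ahsg, Cps1, Fgb and Fgg had 0 counts there, which allows levels of up to 0.00211%, 0.00399%, 0.00304% and 0.00365% of liver at 3 counts over the tissue. Counting intervals and these limits cover counting error only. Against the same yardstick, haptoglobin (Hp), a hemoglobin-binding plasma protein that neutrophils also store, stood at 10.8% of its liver level in marrow.

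**Figure D1:**
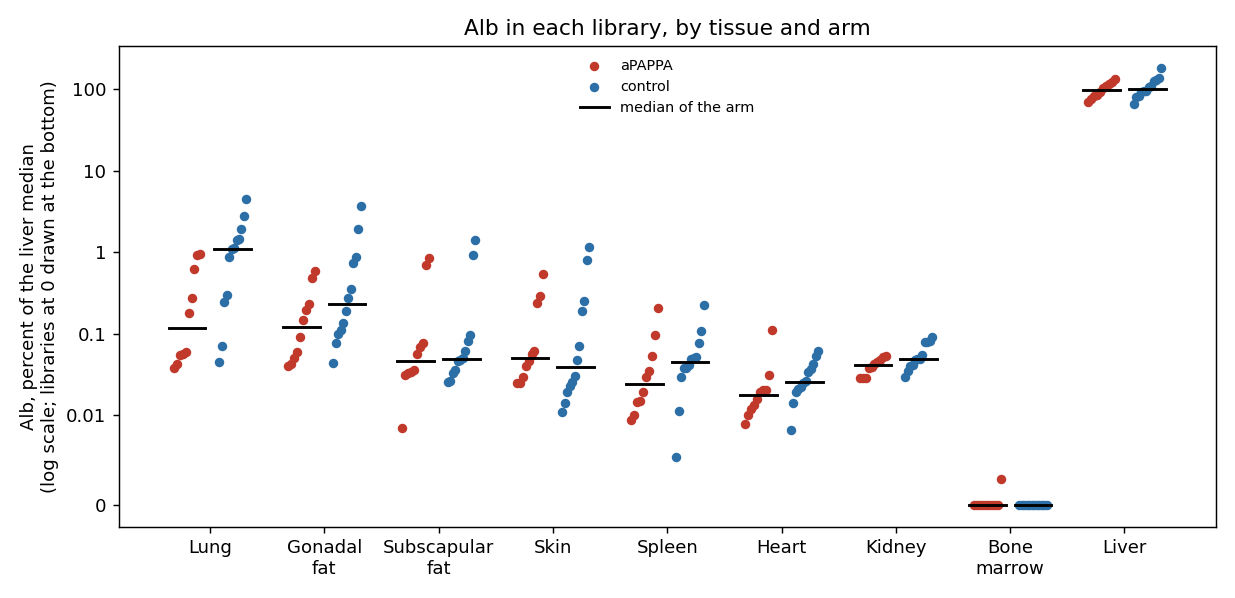
Alb in each of the 22 libraries of 8 non-liver tissues, as a percent of its median in liver on a log axis, with aPAPPA points left of control points, a bar at the median of each arm and libraries at 0 drawn at the bottom. Lung and gonadal fat reach 4.49% and 3.74%, kidney stays between 0.0285% and 0.0917%, and 21 of 22 marrow libraries are at 0.

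In the libraries with the most Alb, the other 7 genes stood near the same percent of their own liver levels. In lung of control male mouse 61, where Alb was at 4.49% from 4290 counts, the 8 genes lay between 4.32% and 7.23%. In gonadal fat of control male mouse 37 they lay between 2.96% and 4.99%, with Alb at 3.74% from 1185 counts. In subscapular fat of the same mouse they lay between 0.936% and 1.51%, and in skin of control male mouse 61 between 0.727% and 1.59%. Genes whose liver levels per kilobase run from 451.1 to 23463.1 CPM thus lay close together in these 4 libraries once scaled to liver. The skin library is the weakest of them, with 201092 usable counts and 4 to 12 counts for each gene other than Alb. Its percents are therefore uncertain from counting alone.

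**Figure D2:**
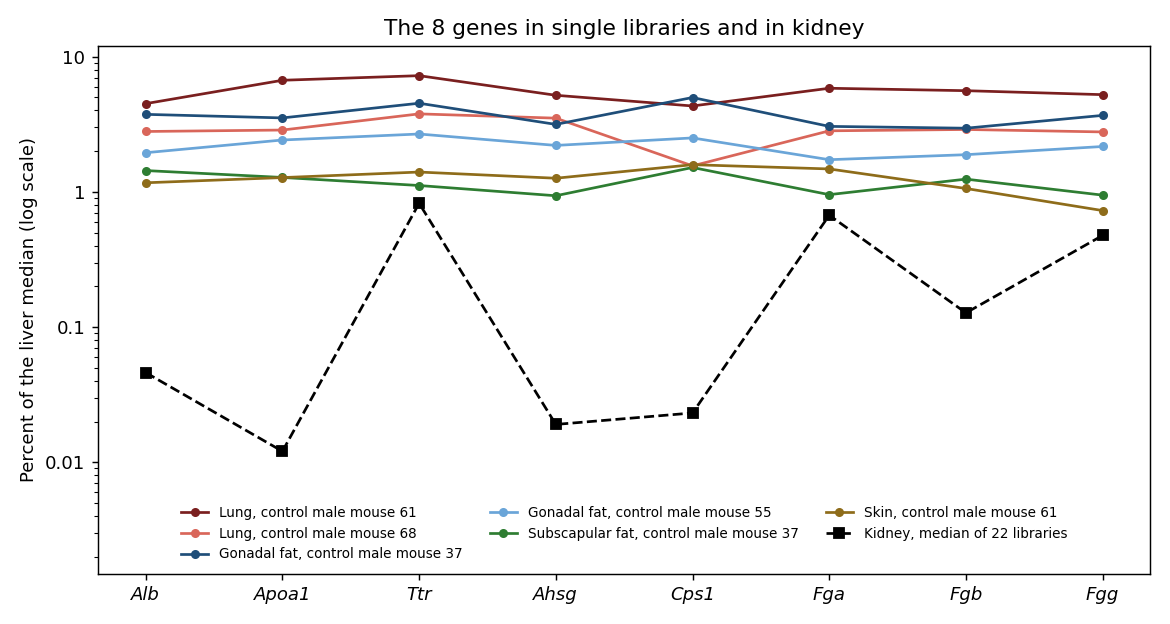
Percent of the liver median (log axis) for each of the 8 genes in single libraries, picked as those with the most Alb in lung, gonadal fat, subscapular fat and skin (solid lines), and the median over 22 kidneys (dashed line). The solid lines run nearly level, while the kidney line stands highest at Ttr, Fga and Fgg.

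Other plasma protein genes and hepatocyte enzymes stood near the same percents in those libraries, and urea cycle genes stood higher. Of 41 other plasma protein genes, 39 had a liver level of at least 100 CPM. In lung of control male mouse 61 their median was 6.31% of liver (quartiles 5.68% and 7.18%), and 23 hepatocyte enzymes that are not secreted had a median of 6.3% (5.43% and 8.31%). In gonadal fat of control male mouse 37 the medians were 3.67% for the plasma proteins and 4.23% for the enzymes, and in subscapular fat of that mouse 1.15% and 1.5%. Some plasma protein genes stood far above that level over a whole tissue. In gonadal fat the median of Hp was 170.5% of liver. Rbp4, the carrier of retinol, was at 13.4% there and Trf, the iron carrier transferrin, at 11.4%. For 6 urea cycle genes the medians were 7.79% in lung of mouse 61 and 4.9% in gonadal fat of mouse 37. They were 2.545% in subscapular fat of mouse 37 and 4.66% in skin of mouse 61. In that skin the plasma proteins had a median of 1.73% and the enzymes one of 1.39%.

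Each gene's count relative to Alb was next compared with the range of that ratio over the 22 livers, with an exact 95% counting interval for each library. Of 154 comparisons per tissue, those wholly above the liver range were 2 in lung, 0 in gonadal fat, 5 in subscapular fat, 1 in skin, 2 in spleen, 7 in heart and 72 in kidney, and 1 in gonadal fat was below it. The intervals are wide where Alb has few counts, so a ratio within the range is not shown to equal that of liver. Pooled over 22 libraries, lung held Alb at 1.03% of liver (exact 95% interval 1.02% to 1.05%), Apoa1 at 1.09% (1.04% to 1.15%), Fgb at 1.01% (0.948% to 1.08%), Cps1 at 0.958% (0.886% to 1.03%), Ahsg at 1.12% (1.06% to 1.18%) and Ttr at 1.2% (1.12% to 1.28%). The intervals of Ahsg and Ttr lie above that of Alb. Without mouse 68 Alb was at 0.936% (0.92% to 0.952%), Ahsg at 0.989% (0.934% to 1.05%) and Ttr at 1.06% (0.984% to 1.13%), and then the interval of Ttr alone of these 2 lies above that of Alb. In gonadal fat the 8 pooled values ran from 0.326% for Fgb to 0.436% for Cps1.

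Across the 22 libraries of a tissue the members tracked Alb closely in lung and fat and not in kidney. The Pearson r of the other 7 genes with Alb in log2 CPM had a median of 0.96 in lung (0.91 to 0.97, and 0.95 without mouse 68), 0.96 in gonadal fat, 0.92 in subscapular fat, 0.93 in skin, 0.8 in spleen, 0.5 in heart and 0.16 in kidney (-0.24 to 0.55). These are descriptions over 22 libraries that share depth with both values. Log2 CPM was taken after 2 counts were added, which lifts genes with 0 counts most where depth is low. Skin includes the doubted library of aPAPPA female mouse 36, with 33377 usable counts and 4 members at 0. The skin r without that library was not computed. Among 12885 genes in lung, the 10 most like Alb held 4 members of the set and 5 other hepatocyte genes, led by Apoa1 at 0.97 and the protease inhibitor gene Pzp at 0.96. In gonadal fat all 10 were members (6) or other hepatocyte genes (4), with Fga at 0.98, and in spleen 7 of the 10 were members. In kidney none of the 10 was on any of these lists, and the closest was Acap3 at 0.85. Members entered these rankings whether or not they passed the filter on low counts, while every other gene had to pass it. In lung all members passed. In gonadal fat 3 members passed, Alb among them but not Fga, and in spleen Alb alone did. The counts of members in gonadal fat and spleen thus rest partly on this choice. They do not show that members track Alb more closely than other sparse genes do.

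Kidney had a profile of its own, with Ttr and the fibrinogen genes high and Apoa1, Ahsg and Cps1 near the limit of detection. Pooled over 22 kidneys, Ttr stood at 0.997% of liver (exact 95% interval 0.932% to 1.06%), Fga at 0.698% (0.653% to 0.746%), Fgg at 0.484% (0.438% to 0.533%) and Fgb at 0.163% (0.139% to 0.189%). Alb stood at 0.0481% (0.0449% to 0.0515%). Ahsg was at 0.0238% (0.0166% to 0.0331%), Cps1 at 0.0206% (0.01175% to 0.0334%) and Apoa1 at 0.0186% (0.0122% to 0.027%). Fga lay above the liver range of ratios to Alb in 22 of 22 kidneys, Ttr and Fgg in 21 and Fgb in 8. The intervals of Apoa1, Ahsg and Cps1 met that range in all 22, but they are wide, since each kidney held few counts of these genes. Pooled over kidneys, their ratios to Alb were 0.381, 0.473 and 0.444 of the liver median. The lowest single livers were at 0.565, 0.723 and 0.608, so all 3 pooled ratios lay below the liver range as point values. They rest on 27, 35 and 16 counts. No interval was computed for these pooled ratios, so a departure beyond counting error is not shown. Ttr was 22-fold, Fga 14.2-fold, Fgg 9.79-fold and Fgb 3.3-fold above the level that Alb would set.

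Other genes of hepatocytes ranged in kidney from 0 to above their liver level. The 39 other plasma protein genes had a median of 0.117% of liver with 10 at 0, and the 23 enzymes had one of 0.316% with 8 at 0. Among those with the highest levels, the glucose 6-phosphatase gene G6pc stood at a median of 122.8% of its liver level in kidney and the homogentisate oxidase gene Hgd at 80.6%. The urea cycle genes, which share a pathway with Cps1, fell into high and low ones. The argininosuccinate synthetase gene Ass1 stood at 135.6% and the lyase gene Asl at 53.0%, while the arginase gene Arg1 stood at 0.11%, the ornithine transcarbamylase gene Otc at 0% and Cps1 at 0.0232%. The highest of the plasma protein genes were the anticoagulant protein C gene Proc at 24.9% and the vitamin E-binding protein gene Afm at 14.5%.

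Ttr was higher in male than in female kidneys. It had 19.5 CPM in the lowest, 39.5 in the median and 90.5 in the highest of 11 male kidneys, against 6.34, 16.6 and 29.0 CPM in 11 female kidneys. The ranges overlap between 19.5 and 29.0 CPM. The log2 difference, male minus female, was 1.55 ± 0.22 (SE, adjusted p = 8.68e-06 by edgeR's quasi-likelihood test). Of the 4 members that passed the filter on low counts in kidney, Ttr was the 1 that was called, on a background of 26.1% of 11476 genes called for sex in this tissue, and Alb (0.11 ± 0.18), Fga (0.35 ± 0.16) and Fgg (0.12 ± 0.17) were not. In liver Ttr was higher in males too, by 0.42 ± 0.12 (adjusted p = 0.00917), with medians of 3158 CPM in males and 2513 CPM in females, and it was the 1 of 8 members called there, where 28.3% of genes were called.

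Fgb ran the other way in kidney. It had 0.681 CPM in the lowest, 1.68 in the median and 5.03 in the highest male kidney, against 3.14, 6.81 and 10.4 CPM in female kidneys. It did not pass the filter, and in a fit with no filter its log2 difference, male minus female, was -1.41 ± 0.32 (edgeR, adjusted p = 0.00223, with 8.59% of genes called in that fit). Fgb lies between 83040141 and 83049863 on chromosome 3 (mm10) on the minus strand, near Fga at 83026076 to 83033627 on the plus strand, whose medians were 29.4 CPM in male and 27.0 CPM in female kidneys.

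**Figure D3:**
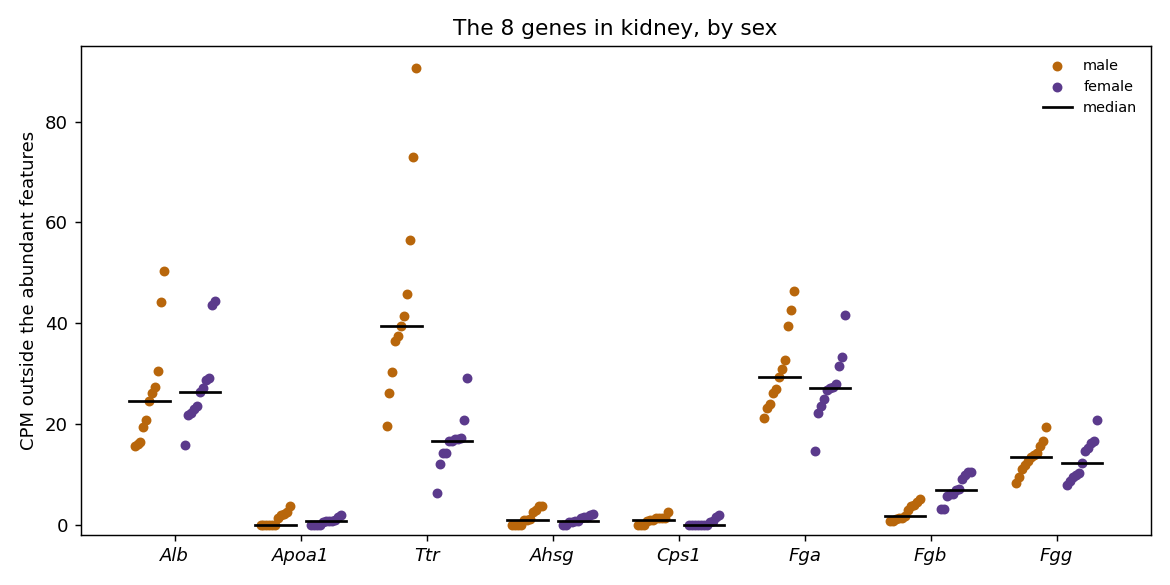
CPM of the 8 genes in each kidney library, male points left of female points, with a bar at the median of each sex (n = 11 each). Male Ttr runs up to 90.5 CPM with a median of 39.5, female Ttr has a median of 16.6, and Fgb medians are 1.68 CPM in males and 6.81 in females.

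In heart it was Ahsg that parted from Alb, in some mice only. Pooled over 22 hearts Ahsg stood at 0.235% of liver (exact 95% interval 0.212% to 0.258%), while the other 7 genes stood at 0.0273% to 0.0478%. In 6 hearts Ahsg lay above the liver range of its ratio to Alb. These were hearts of aPAPPA male mice 58 (81 counts, 0.802% of liver) and 70 (26 counts, 0.561%), aPAPPA female mouse 36 (17 counts, 0.309%), control male mouse 45 (59 counts, 0.52%) and control female mice 3 (61 counts, 0.348%) and 18 (76 counts, 1.44%). Alb in these hearts had 4 to 29 counts and 0.00652% to 0.0316% of its liver level. In the other 16 hearts Ahsg was at 0% to 0.148%.

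**Figure D4:**
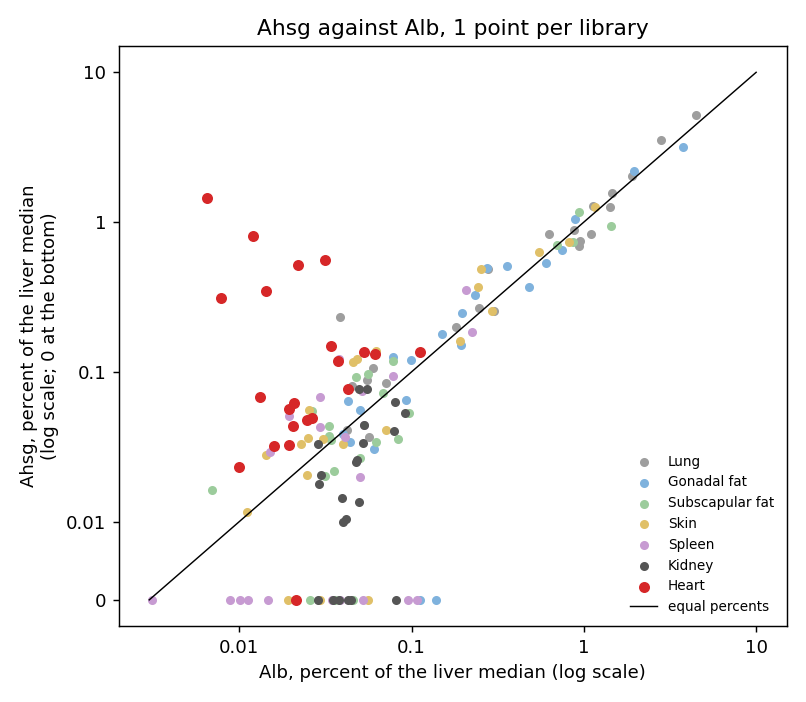
Ahsg against Alb, each as a percent of its liver median on log axes, 1 point per library, with a line where the percents are equal and libraries with 0 Ahsg at the bottom. Most points of the other tissues lie near the line, and 6 hearts stand above it at 0.309% to 1.44% Ahsg.

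Those hearts lie in both arms and both sexes, and none of them is a heart library in doubt. In a ranking made after these values were seen, the genes most like Ahsg over the 22 hearts were led by Gm37140 (r = 0.92), the matricellular protein gene Ctgf (0.91) and the endothelin receptor gene Ednrb (0.90). The natriuretic peptide gene Nppa, made mainly by atrial muscle cells, was the tenth at 0.87. Which cells carried Ahsg was not tested.

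The treatment question was whether the members differed between aPAPPA and control mice in each tissue. None did by edgeR over all genes tested, in any of the 8 tissues where a member could be tested, and the share of all genes called for treatment was 0% in each of them. DESeq2 and limma-voom called 0 members too. An unadjusted p under 0.05 was reached by 8 of 8 members tested in lung, 3 of 3 in gonadal fat, 1 of 4 in kidney and 0 in the other 5 tissues, where 887 of 12886 genes in lung, 609 of 11993 in gonadal fat and 485 of 11476 in kidney did so. By limma-voom it was reached by 5 of 8 in lung, 3 of 3 in gonadal fat and 0 of 4 in kidney, and by DESeq2 by 8, 1 and 1. In lung all 8 members had lower estimates in aPAPPA mice. Alb there had 0.0384% of liver in the lowest, 0.12% in the median and 0.952% in the highest of 10 aPAPPA lungs, against 0.045%, 1.11% and 4.49% in 12 control lungs. The arms overlap from 0.045% to 0.952%, and 7 control lungs but 0 aPAPPA lungs reached 1%. Without mouse 68 the control median was 1.1%, with 6 of 11 control lungs at 1% or more. In bulk tissue, fewer cells of a type and less RNA per cell cannot be told apart.

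The lung log2 differences, aPAPPA minus control, were -2.05 ± 0.74 for Alb, -2.07 ± 0.74 for Apoa1, -2.25 ± 0.69 for Ttr, -2.11 ± 0.66 for Ahsg, -2.20 ± 0.68 for Cps1, -2.41 ± 0.71 for Fga, -2.17 ± 0.69 for Fgb and -2.20 ± 0.67 for Fgg (SE, edgeR, adjusted p = 0.713 for each). All 8 had an unadjusted p of 0.0106 or less, and the 8 values are not independent, since the genes track each other across lungs as described above. Their median was -2.18, beside -0.00249 for all genes tested. Of the other hepatocyte lists, 22 plasma protein genes tested had a median of -1.82 and 7 enzymes had one of -1.40. The 4 urea cycle genes tested had one of -0.36, and 0 genes of these lists were called. Examples are the vitamin D carrier Gc at -2.30 ± 0.70, the heme carrier Hpx at -2.34 ± 0.74 and Cyp2e1 at -1.88 ± 0.66. Among marker lists of other cells, 3 adipocyte genes tested had a median of -1.69 and 7 macrophage genes had one of -0.48. The median was 0.014 for 6 lung epithelium genes and 0.76 for 5 cardiomyocyte genes, with 0 called. These fits include mouse 68. The 6 liver-enriched transcription factor genes tested had a median of 0.16. All 12 genes of that list had a median level in lung of 3.49% of liver, with an upper quartile of 49.1%. The minimum of 100 CPM in liver, set for the plasma protein genes and enzymes, was not applied to this list. Its percents can thus rest on low liver levels and are not on a like footing. The median level was 0.525% for the plasma protein genes and 0.594% for the enzymes. Whether cells of the lung itself carried these factors was not tested.

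Single libraries weigh on the lung values. Without control male mouse 61, Alb was at -1.70 ± 0.70 and Fga at -1.88 ± 0.65, and without the doubted lung library (mouse 68), Alb was at -1.90 ± 0.72 and Fga at -2.29 ± 0.70 (adjusted p = 0.634 and adjusted p = 0.859). The median of the usable count was 944625.5 in aPAPPA lungs and 1289195 in control lungs. Lung epithelium markers summed to 16130 to 37310 CPM in aPAPPA lungs and, with mouse 68 at the low end, to 9.933 to 32560 CPM in control lungs, and 0 of the 6 marker genes were called. Adipocyte markers summed to 14.9 to 749.5 CPM in aPAPPA lungs and to 11.5 to 9495 CPM in control lungs, and mesothelial markers to 353.3 to 963.4 and 428.6 to 1541 CPM. The part of depth or of these cells in the lung values was not tested.

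In gonadal fat, where the differences of 3 members were already known, the ratios of 7 genes to Alb lay within the liver range in 153 of 154 comparisons. Male mice of the aPAPPA arm had 0.0505% of liver in the lowest, 0.196% in the median and 0.481% in the highest fat for Alb, against 0.194%, 0.621% and 3.74% in control males. Females had 0.0399%, 0.0602% and 0.599% in the aPAPPA arm, against 0.0442%, 0.106% and 0.744% in controls. Both sexes overlap between arms. The 3 members that passed the filter, Alb, Apoa1 and Ahsg, had unadjusted p of 0.0448, 0.0119 and 0.0209 (edgeR, adjusted p = 0.973 for each), and the sex by treatment term, called for 0% of genes in gonadal fat, was -2.29 ± 1.23 for Alb (adjusted p = 1).

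**Figure D5:**
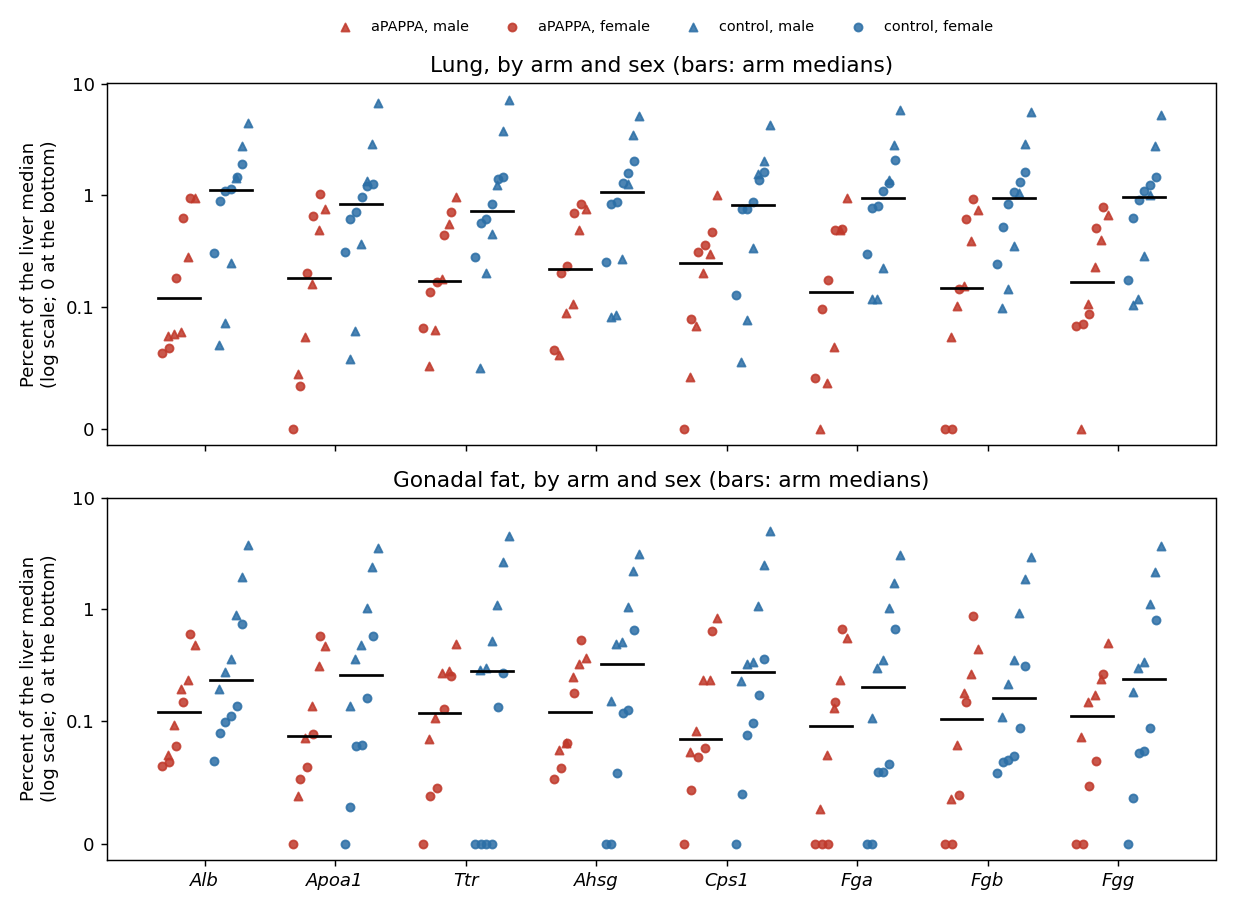
The 8 genes in lung and in gonadal fat as a percent of the liver median (log axis, 0 at the bottom), aPAPPA left of control, with male and female mice as separate markers and a bar at each arm's median. For Alb the lung medians are 0.12% in aPAPPA and 1.11% in control mice and the gonadal fat medians are 0.121% and 0.234%, and the arms overlap for every gene.

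In the other tissues no treatment estimate of a member passed the test. Alb was at -0.27 ± 0.67 in subscapular fat, -0.65 ± 0.71 in skin, -0.19 ± 0.58 in spleen and -0.23 ± 0.46 in heart (edgeR, adjusted p = 1 or close to it). In kidney Alb had 15.7 to 29.0 CPM in aPAPPA mice (median 22.6) and 16.4 to 50.4 CPM in control mice (median 27.2), a log2 difference of -0.42 ± 0.18 (unadjusted p = 0.0283, edgeR, adjusted p = 1), while Ttr, Fga and Fgg were at 0.12 ± 0.22, 0.11 ± 0.16 and -0.27 ± 0.17. In liver itself the 8 estimates ran from -0.11 to 0.23 with SE of 0.12 to 0.21 (edgeR, adjusted p = 1 for each). The sex by treatment term called no member in the 8 tissues, against 0.00835% of genes called in spleen and 0% in the others. The treatment effect on Alb in gonadal fat minus that in subscapular fat was -1.29 ± 1.06 (limma-voom, adjusted p = 0.97), with 0% of 13741 genes called.

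Some members were higher in males than in females in fat, Alb in subscapular fat and Apoa1 and Ahsg in gonadal fat. In subscapular fat Alb had 0.00698% of liver in the lowest, 0.0624% in the median and 1.44% in the highest of 11 males, against 0.0256%, 0.0459% and 0.0966% in 11 females. The log2 difference was 2.99 ± 0.71 (edgeR, adjusted p = 0.0125, 15.5% of genes called), and Alb was the 1 member tested. That difference rests on 4 males, control mice 37 and 61 at 1.44% and 0.931% and aPAPPA mice 56 and 41 at 0.86% and 0.698%. The other 7 males lay at 0.0778% or below, within or under the female range, and by limma-voom the difference was 1.501 ± 0.776 and was not called (adjusted p = 0.195, 10.4% of genes called).

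In gonadal fat Apoa1 had 0.0217% of liver in the lowest, 0.362% in the median and 3.52% in the highest male, against 0%, 0.0601% and 0.577% in females. Its log2 difference, male minus female, was 2.47 ± 0.72 (edgeR, adjusted p = 0.0229), that of Ahsg was 2.26 ± 0.69 (adjusted p = 0.0283) and that of Alb was 1.65 ± 0.69 (adjusted p = 0.11). So 2 of 3 members tested were called, where 15.1% of genes were called for sex. DESeq2 called neither, at 2.06 ± 0.79 for Apoa1 (adjusted p = 0.0516) and 1.89 ± 0.75 for Ahsg (adjusted p = 0.0601), with 17.4% of genes called. Leaving out control mouse 3, 4, 22 or 55 ended the call of Ahsg, and without control mouse 18, 37, 45, 61 or 68 Apoa1 fell to the filter and was not tested. The log2 difference of Ahsg stayed at 1.90 to 2.73 over 22 such fits and that of Apoa1 at 2.20 to 3.04 over 17. Beside them, 9 of 15 other plasma protein genes tested in gonadal fat were higher in males and 1 was lower (median 1.25), while 1 of 4 enzymes was higher and 1 was lower (median -0.16). Of the markers of other cells, 6 of 7 for macrophages were higher in males (median 0.96), and 2 of 7 for adipocytes were lower (median -0.43). The part of these cells in the members' differences was not tested.

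In skin Alb had 0.011% to 1.17% of liver in males (median 0.191%) and 0.0144% to 0.545% in females (median 0.0255%). The female high of 0.545% is the skin of aPAPPA female mouse 36, a library of 33377 usable counts. With it the log2 difference was 2.70 ± 0.72 (edgeR, adjusted p = 0.151, 0.313% of genes called), and without it 2.90 ± 0.67 (adjusted p = 0.0463, with 0.597% called). In a fit with no filter that kept this library, it was 2.62 ± 0.59 (adjusted p = 0.0201), with 5 of 8 members and 0.55% of genes called, so the call depends on the library and on the filter. In lung, spleen and heart no member tested was called for sex, where 0.14%, 4.54% and 0.187% of genes were called.

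Subscapular fat held another departure from the common profile, in females. There Fgb had 0.0333% to 0.366% of liver (median 0.116%) and Fgg 0% to 0.549% (median 0.197%), while Fga had 0% to 0.0446% (median 0.0255%). In males the medians were 0.0443% for Fgb, 0.0442% for Fgg and 0.0898% for Fga. All 5 ratios to Alb above the liver range in this tissue belonged to Fgb or Fgg in females, in control mice 4 and 22 and aPAPPA mouse 23. In control female mouse 4 these were 24 counts of Fgb and 30 of Fgg beside 106 of Alb. The fibrinogen genes did not pass the filter in this tissue. In a fit with no filter, where 6.15% of genes were called for sex, 6 of 8 members were called higher in males, among them Fga at 4.20 ± 0.77 (edgeR, adjusted p = 0.00164). Fgb (1.53 ± 0.66, adjusted p = 0.182) and Fgg (1.02 ± 0.66, adjusted p = 0.412) were not called, and their fitted values have the opposite sign to the difference of their medians.

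No relation between the Alb levels of 2 tissues of the same mouse passed the test. Over the 22 mice 28 pairs of tissues were compared, marrow aside, where Alb was at 0 in 21 of 22 libraries. The tests were two-sided permutation tests with 100000 resamples, and 0 of 28 pairs had an adjusted p under 0.05. The highest r was that of heart and kidney, at r = 0.49 (permutation p = 0.0227, adjusted p = 0.635) and rho = 0.47 (adjusted p = 0.476), with 0.54 without the 2 mice farthest from the median, 0.64 in 11 males and 0.45 in 11 females. Lung and gonadal fat had r = 0.03. Mice with high values in several tissues existed all the same. In aPAPPA male mouse 56 Alb reached 0.1% of liver in 5 tissues and in control male mouse 61 in 4, whereas in aPAPPA male mouse 58 it did so in 0. Control male mouse 55 stood at 1.95% in gonadal fat and 0.818% in skin but at 0.0708% in lung.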

How the data were processed

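RNA-seq counts of 22 libraries from each of 9 whole tissues were analysed. The deposited counts are whole numbers per gene and library, not scaled; FastQC 0.11.5, Salmon and build mm10 are named in the submitters' processing notes. How the estimates became whole numbers, and whether strand was used, is not given in the sources used here. Per the labels' protocols, libraries were stranded and made from total RNA. The 8 genes and the other gene lists were chosen with earlier results of these data known.

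Depth ran from 4138419 to 19517950 counts per library, of which 47.4% to 99.5% fell on 9 features, each holding 0.9% or more on average. CPM was computed outside them and divided by the median of 22 livers. Exact binomial intervals (95%) cover counting error only, since counts without molecular identifiers are not independent molecules. Doubted libraries are those with under 1000 genes at 10 counts, or with own-tissue markers over 2 log2 units under the median of their tissue.

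Each tissue was fitted alone with edgeR 4.0.16 (R 4.3.3): quasi-likelihood F-tests with sex and treatment, TMM, filterByExpr and Benjamini-Hochberg adjustment over all genes tested, called at an adjusted p under 0.05. Each mouse is 1 replicate. The fat depots were compared with limma 3.58.1 (voom). The same mice gave both depots, so mouse numbers pair the samples by animal, and the consensus correlation of that block was 0.029. Alternatives were a fit with no filter, limma-voom, DESeq2 1.42.0, RLE factors, a fit without sex, and fits without the abundant features, the doubted libraries or single mice. Scripts were tested on simulated data. All 8 genes were described in every tissue, with up to 4 genes per other list by level or p, and the 10 genes most like Alb. Some genes that this rule names are not reported here.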

Additional observations from a re-analysis of the deposited data

Results flagged for a closer look

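Among 66 groups of 10 aPAPPA libraries checked for 1 library far from the rest (Dixon's test on log2 of CPM plus 1, beyond the 95% critical value), 10 stood out. A chance rate of about 1 in 20 holds only for independent groups with a normal spread. Here the genes track each other in most tissues and many values rest on few counts, so no excess over chance is shown. In spleen aPAPPA male mouse 56 stood apart in 4 genes: Ahsg at 16.7 CPM (group median 0.692), Fga at 15.9 CPM (1.45), Fgb at 11.9 CPM (0.538) and Fgg at 11.9 CPM (1.08). In heart aPAPPA female mouse 33 stood apart with Alb at 61.9 CPM (next highest 17.4), Fga at 8.19 CPM and Fgb at 8.19 CPM. In kidney aPAPPA male mouse 41 had Fga at 46.3 CPM (next highest 33.2). In bone marrow aPAPPA male mouse 56 had Alb and Ttr at 0.915 CPM, which is 1 count each. No explanation was tested for any of these.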

How the results depend on the processing

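No member was called for treatment under any alternative run. The count of members called for male minus female moved as follows. In gonadal fat it was 2 of 3 tested (15.1% of all genes called), against 0 of 3 with DESeq2 (17.4%), 6 of 8 with no filter (4.95%), 1 of 2 without the abundant features (15.0%) and 1 to 3 with single mice left out. In subscapular fat it was 1 of 1 (15.5%), against 0 of 1 with limma-voom (10.4%) and 6 of 8 with no filter (6.15%). In skin it was 0 of 1 (0.313%), against 5 of 8 with no filter (0.55%) and 1 of 1 without the libraries in doubt (0.597%). In kidney it was 1 of 4 (26.1%), against 2 of 8 with no filter (8.59%), and in liver 1 of 8 (28.3%), against 2 of 8 with DESeq2 (30.1%) and 1 to 2 with single mice left out. With TMM factors over all libraries the kidney medians were 0.479% of liver for Fga and 0.344% for Fgg, and the Alb medians were 0.259% in lung, 0.105% in gonadal fat, 0.0242% in skin and 0.0181% in spleen. With all counts as denominator the Alb median in gonadal fat was 0.336%.

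The mouse as a replicate block in the comparison of both fat depots, where the same animals pair the samples, gave -1.29 ± 1.05 for Alb (limma-voom, adjusted p = 0.953) and changed no call.

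Of 89 differences tested, 19 changed sign under an alternative, 17 of them among the 50 smaller than their standard error and 2 (Apoa1 and Ttr for sex in lung) larger than it. No sign change involved a called value, and the cause was not tested. For sex in lung, limma-voom gave Alb -0.76, Apoa1 -0.22, Ttr -0.0065, Ahsg -0.55, Cps1 -0.26, Fga -0.30 and Fgg -0.17, and without the library in doubt Alb was at -0.12. DESeq2 gave 0.55 for Alb by treatment in skin. In spleen limma-voom gave Alb 0.096 for treatment and 0.51 for sex. Sex in heart for Alb was -0.043 with DESeq2, -0.012 with RLE scaling and -0.0059 without the abundant features. Treatment in liver was 0.013 for Apoa1 with limma-voom, and for Ahsg -0.033 with no filter and -0.00052 with sex left out. With single mice left out, treatment in liver ran from -0.055 to 0.053 for Ahsg, -0.054 to 0.054 for Apoa1, -0.11 to 0.0047 for Fga and -0.12 to 0.018 for Fgb, and in subscapular fat from -0.63 to 0.090 for Alb. Sex in liver ran from -0.014 to 0.12 for Fga and -0.028 to 0.13 for Fgb. Sex in lung ran from -0.41 to 0.36 for Alb, -0.24 to 0.42 for Ahsg, -0.021 to 1.01 for Apoa1, -0.021 to 0.80 for Fga, -0.078 to 0.81 for Fgb and -0.093 to 0.74 for Fgg. Limma-voom for sex, and single mice left out for sex and in lung and subscapular fat, and the other lung values without mouse 68, were chosen after seeing the data.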

Other observations

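Pancreatic acinar markers were also read outside their organ. Their 10 genes summed to at most 32.2 CPM in aPAPPA spleens and reached 4830 CPM in 1 control spleen.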
